A study of Mus musculus with 18 samples.

Results

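The kidney comparison set RNA from whole kidney of DBA/2J mice against RNA from whole kidney of C57BL/6J mice, 2 inbred laboratory strains. It consists of the 6 arrays titled as kidney, out of 18 arrays in the series. The other 12 arrays compared the same strains in brain and in liver, 6 each, and are used here only where a kidney ratio is set beside theirs. On every kidney array the DBA/2J RNA carried Alexa Fluor 647 and the C57BL/6J RNA carried Alexa Fluor 555, with no dye swap, and each RNA was a pool from 10 mice. All 6 arrays used that 1 pair of pools, so the spread between arrays is that of repeated hybridisations, and the p-values below measure that spread and not the spread between mice. The labels used here give neither sex nor age of the mice. Ratios are log2 of DBA/2J over C57BL/6J, so that a value above 0 is likely a higher level in DBA/2J. The direction follows from which dye each strain carried and from the channel order that limma uses, and a dye effect of a spot cannot be told apart from a strain effect in kidney alone.

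The kidney filters blood at the glomerulus, whose capillaries are wrapped by podocytes, and the proximal tubule then takes back most of the filtered sodium, phosphate, glucose, amino acids and small proteins. The proximal tubule burns fatty acids, makes glucose and ammonia, and secretes organic anions and cations. The thick ascending limb, the distal convoluted tubule and the collecting duct set the final salt, calcium, acid and water content of the urine. These segments are known by the transporters they carry, which is how the gene lists below were drawn up.

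Spot brightness followed the labelled tissue. The median brush border gene of the proximal tubule was brighter on the kidney arrays than on the brain arrays by 1.39 and than on the liver arrays by 1.04 on the log2 scale. Spots for Umod (uromodulin), Kap (kidney androgen regulated protein) and S100g (calbindin-D9k) lay in the brightest percentiles in kidney, at 99.5, 100 and 99.6, and those of Lrp2 (megalin) and Slc34a1 at 96.6 and 95.1. Neuronal and myelin genes were dimmer in kidney than in brain (median difference -2.09) and hepatocyte genes dimmer than in liver (median difference -5.34). Some spots did not follow their gene's tissue: Slc5a2 and Slc22a6, which are proximal tubule genes, had brightness percentiles of at least 98.7 in all 3 tissues, and their ratios may not be those of the named gene. The spot of Aqp2, a collecting duct gene, was at percentile 99.3 in liver against 87.5 in kidney, that of Hsd11b2 at 88.7 against 67.3, and that of Hpd at 98.3 in brain, and the same reservation holds for them.

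Before correction the kidney ratios rose with brightness on every array. With each array centred on its median, the dimmest decile of the spots had a median log2 ratio between -0.94 and -0.46 and the brightest decile one between 0.65 and 0.91. Print-tip loess removed this trend, so every ratio below is relative to spots of like brightness. Kidney genes are bright, and their sign can depend on this step. Of the 7529 features past the threshold, 1924 (25.6%) had the other sign before loess. Without loess 6468 features would be called higher (32%) and 6645 lower (32.9%). The value before loess is therefore given beside each named gene whose sign differed. A further 6 named genes kept their sign but did not pass before loess: Slc16a14 (-0.13), Car4 (-0.20), Dpp4 (-0.20), Scnn1g (-0.042), Emcn (-0.081) and Cyp4a10 (-0.038). Conversely, 14 named genes that did not pass after loess passed before it: Slc22a6, Slc22a8, Lrp2, Cubn, Calb1 (0.64), Aqp2 (0.34), Atp6v1b1 (0.27), Pck1 (0.87), Gatm (0.83), Ass1 (0.70), Cyp4b1 (0.84), Agt (0.63), Kap and Xist (-0.37). For these genes a ratio near 0 is thus a statement relative to spots of like brightness. Of the counts of higher and of lower members in the 33 gene lists below, 48 of 66 moved by over 1.5 times without loess and 24 of 66 with brightness not restored. Brightness here includes a factor common to both channels that had to be estimated. When it was left out, 19 of the 92 named genes past the threshold no longer passed with their sign: Slc5a2, Slc16a14, Slc15a2, Car4, Dpp4, Oxsr1, Slc12a3, Scnn1a, Slc26a4, Car15, Rhcg, Wt1, Emcn, Ly6c1, Pfkp, Acox2, Ehhadh, Cyp4a10 and Eif2s3y.

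**Figure D1:**
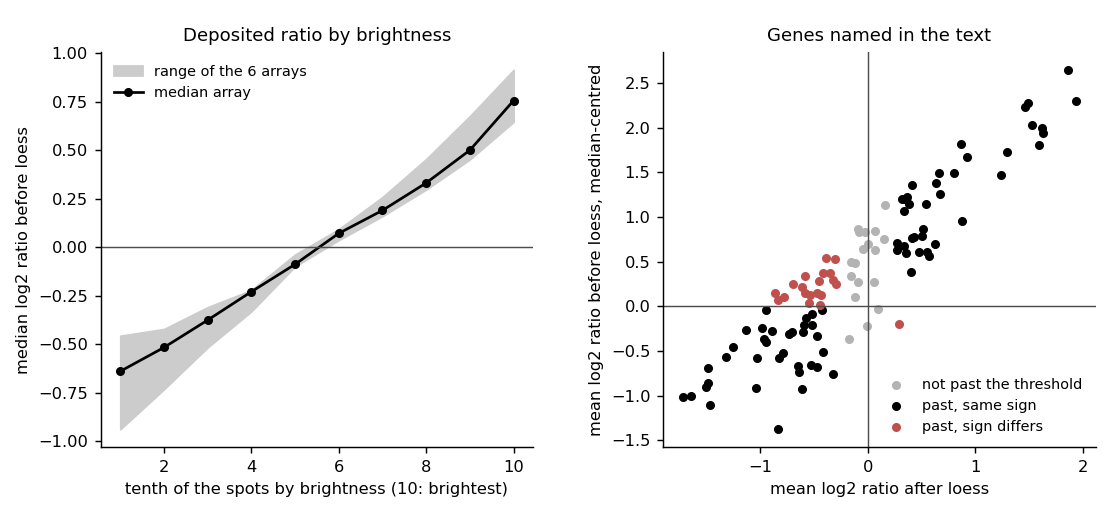
Left, median log2 ratio before loess (vertical axis) in each decile of the spots by brightness (horizontal axis), with the range of the 6 kidney arrays in grey: it climbs from -0.64 in the dimmest decile to 0.75 in the brightest on the median array. Right, mean log2 ratio of the genes named in the text after loess (horizontal) and before it (vertical): 20 of the 92 genes past the threshold, in red, have a different sign.

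After loess, 7529 of 20218 features (37.2%) had a mean kidney ratio different from 0 at an adjusted p under 0.05 (limma, Benjamini-Hochberg over all features), 3824 of them higher in DBA/2J (18.9%) and 3705 lower (18.3%). Only 753 features (3.72%) were also at least 1.5-fold apart, 301 higher (1.49%) and 452 lower (2.24%), and 132 were at least 2-fold apart. Shares of a gene list past the threshold are read against these values. As many as 6636 features (32.8%) stayed on the same side of 0 across the 6 kidney arrays. Genes named below as the highest or lowest members of a list were chosen with that as a condition. For them a shared sign is a description and not separate evidence. Normalised ratios of pairs of kidney arrays correlated, across spots, by 0.504 to 0.686. Array 3 stood apart from the others for many of the largest ratios: among the 132 features 2-fold apart, it was the outlying array nearest to 0 or beyond it for 15, and no other array was so for more than 1. Results that rest on array 3 are given with and without it. Most genes were measured by 1 spot, and where 902 genes had 2 spots, the kidney ratios of the spots correlated, across genes, by only 0.0951.

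Podocyte genes of the glomerulus and endothelial genes of the whole kidney passed the threshold in 29.2% and 33.3%, against 37.2% of all features. Of the endothelial genes 22.2% were lower in DBA/2J and 11.1% higher, against 18.3% and 18.9% of all features. The lists are small, and these shares are a description. Of 24 podocyte genes measured, 2 were higher and 5 lower (29.2% past the threshold), with a median log2 ratio of -0.03. Without array 5, 4 were higher. Nphs1 (nephrin, of the slit diaphragm) had ratios from -0.21 to 0.39 with a median of 0.10, and did not pass the test. Wt1, the podocyte transcription factor, was higher by 0.29 ± 0.20 (SD, n = 6 arrays here and throughout), but stood at -0.19 before loess. Whole kidney is bulk tissue, in which fewer cells of a type and less RNA per cell cannot be told apart.

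Of 27 endothelial genes, 3 were higher and 6 lower (33.3%), with a median of -0.03. Plvap, which spans the pores of fenestrated endothelium, had log2 ratios from -1.51 to -0.64 with a median of -0.77. All 6 arrays were below 0, and array 3 held the lowest value. The mean was -0.89 ± 0.32, a level 1.86-fold lower in DBA/2J (limma adjusted p = 1.9e-05), and -0.77 without array 3. Emcn (endomucin) was lower by a mean of -0.52 ± 0.18 and Ly6c1 by -0.44 ± 0.18, which before loess were at -0.081 and 0.017 and did not pass. Pecam1, the general endothelial adhesion molecule, was at 0.00 ± 0.20 and did not pass the test. In the list of mesangial, renin and smooth muscle cells, 6 of 17 genes were lower and 0 higher (35.3%, against 37.2% of all features past the threshold). Its member with the lowest mean, Mgp (matrix Gla protein, an inhibitor of calcification), was at -0.48 ± 0.10, and at 0.14 before loess. A single loess curve per array left 1 endothelial gene higher in place of 3, and 1 mesangial list gene higher in place of 0.

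The proximal tubule solute carriers differed in both directions, with 12 of 36 measured genes higher (33.3%) and 6 lower (16.7%), and a median log2 ratio of 0.09 against 0.01 over all features. The lowest mean in the list was that of the phosphate carrier. Slc34a1 encodes the sodium-phosphate cotransporter of the proximal brush border that sets phosphate excretion. Its log2 ratios ran from -1.24 to -1.07 with a median of -1.12, so the 6 arrays lay close together and well below 0. The mean of -1.13 ± 0.07 is a 2.19-fold lower level in DBA/2J (limma adjusted p = 3.9e-08). Before loess it was -0.26.

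Among the higher members were carriers of dicarboxylates, amino acids and glucose. Slc13a3, a sodium-dicarboxylate cotransporter, ran from 0.21 to 0.86 with a median of 0.53 (mean 0.56 ± 0.26, 1.47-fold). Slc36a1, a proton-coupled carrier of small amino acids, was at 0.41 ± 0.22. Slc5a2, the main glucose reabsorbing transporter of the early proximal tubule, was at 0.32 ± 0.22, with the reservation on its spot given above. Slc16a14, an orphan member of the monocarboxylate carrier family, went the other way at -0.58 ± 0.16.

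Among 30 transporters of organic anions, cations and drugs, 4 were higher and 9 lower (43.3%), and the number higher fell to 2 when array 1, 2, 4 or 5 was left out. Slc22a7 (an organic anion transporter) ran from -1.20 to -0.34 with a median of -0.86, below 0 on every array. Its mean was -0.83 ± 0.28, or 1.78-fold lower (limma adjusted p = 1.8e-05), but 0.067 before loess. Slc15a2, the carrier that recovers small peptides, was lower at -0.64 ± 0.30. Slc22a12, the urate exchanger, was lower at -0.42 ± 0.27, and at 0.37 before loess. Slco1a1, an organic anion transporter known for its higher level in male kidney, was higher at 0.36 ± 0.12. The classical secretory pair Slc22a6 and Slc22a8, which neighbour each other in the genome, were at 0.16 ± 0.09 and 0.15 ± 0.16 and did not pass the test. Before loess both passed, at 1.14 and 0.75, and Slc22a6 also passed narrowly with brightness not restored and with robust moderation (limma adjusted p = 0.0497 and 0.030).

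In the brush border and endocytosis list, 6 of 38 genes were higher and 6 lower (31.6%), with a median of -0.05. The membrane-bound carbonic anhydrases, which serve bicarbonate recovery, went in opposite directions. Car14 ran from 0.37 to 0.73 with a median of 0.57 (mean 0.55 ± 0.14), and Car4 from -0.86 to -0.36 with a median of -0.60 (mean -0.59 ± 0.17). Each was chosen by a rule that asks for 1 sign on all 6 arrays, so their arrays could not overlap. Aqp1, the water channel of the proximal tubule and thin limb, was higher at 0.34 ± 0.14. The peptidase Dpp4 was lower at -0.52 ± 0.23. The endocytic receptors Lrp2 (megalin) and Cubn (cubilin) were at 0.07 ± 0.12 and -0.16 ± 0.11 and did not pass the test, while before loess they passed at 0.84 and 0.49. The 2 spots of Lrp2 were at 0.25 (higher on 6 of 6 arrays) and -0.11 (higher on 1 of 6).

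The promoters of the phosphate carrier and of 2 further kidney genes with large ratios, Umod (lower) and Hao2 (higher), are shown from 250 bases before to 50 bases after the transcript start, because they share copies of a short sequence recognised by the tubular transcription factor HNF1. Capitals mark GTTAAT or, on the other strand, ATTAAC, which is one side of the palindromic HNF1 site. Sequences are RefSeq's for GRCm38.p6: Slc34a1 at chr13:55399398-55399697 (plus strand), Umod at chr7:119479213-119479512 (minus) and Hao2 at chr3:98893181-98893480 (minus).
Slc34a1: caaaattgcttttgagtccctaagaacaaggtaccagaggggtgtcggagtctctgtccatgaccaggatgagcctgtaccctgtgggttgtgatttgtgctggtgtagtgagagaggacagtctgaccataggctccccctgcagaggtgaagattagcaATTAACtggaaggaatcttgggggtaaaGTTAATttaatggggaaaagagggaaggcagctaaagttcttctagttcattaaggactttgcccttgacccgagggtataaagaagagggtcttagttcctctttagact
Umod: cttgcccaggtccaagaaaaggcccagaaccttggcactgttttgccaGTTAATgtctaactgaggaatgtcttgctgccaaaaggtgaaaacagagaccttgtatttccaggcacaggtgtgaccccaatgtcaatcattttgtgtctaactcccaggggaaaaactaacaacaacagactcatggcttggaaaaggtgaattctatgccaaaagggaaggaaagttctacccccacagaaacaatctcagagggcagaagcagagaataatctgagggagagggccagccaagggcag
Hao2: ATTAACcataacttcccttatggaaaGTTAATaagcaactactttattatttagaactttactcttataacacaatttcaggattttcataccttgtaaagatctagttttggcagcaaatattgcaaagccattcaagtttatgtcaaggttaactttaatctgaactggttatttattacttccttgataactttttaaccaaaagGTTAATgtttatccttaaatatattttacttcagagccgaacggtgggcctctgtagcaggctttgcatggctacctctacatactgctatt
In the Slc34a1 window the matches began 89 and 61 bases before the start, in Umod 202 bases before it and in Hao2 250, 224 and 42 bases before it. The 6 letters were found on either strand in 2332 of 32851 promoters of this length (7.10%). They were found in the promoters of 14 of the 50 list genes that passed the threshold at 1.5-fold and have a promoter in the table (28%), and in 72 of 693 other list genes (10.4%). Some of the 14 are near-copies of one another. A match is a description of letters only, and the genes that held it moved in both directions.

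In the thick ascending limb, 10 of 26 genes were lower in DBA/2J (38.5%, against 18.3% of all features) and 5 higher (19.2%), although the median was -0.02. A single loess curve per array gave 3 higher. Umod encodes uromodulin, the most abundant protein of normal urine, made mainly in this segment. Its log2 ratios were -0.97 at the lowest, -0.77 at the median and -0.66 at the highest, and all 6 arrays were below 0. The mean of -0.78 ± 0.10 is a 1.72-fold lower level (limma adjusted p = 1.8e-06), and the mean before loess was 0.11. Kcnj1, the potassium channel that recycles potassium into the lumen, ran from -1.11 to -0.53 with a median of -0.82 (mean -0.79 ± 0.23, 1.73-fold lower), and was -0.53 before loess. Its spot was as bright in liver (percentile 77.6) as in kidney (76), the liver ratio was -0.56, and kidney minus liver was not past the threshold. Defb1, a beta-defensin of the distal nephron, was at -0.54 ± 0.14, and at 0.034 before loess.

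The kinases that switch on the sodium-chloride cotransporters of this segment and the next were not alike. Stk39 (the kinase SPAK) ran from 0.93 to 1.41 with a median of 1.29, above 0 on all 6 arrays. The mean was 1.24 ± 0.19, 2.37-fold higher in DBA/2J (limma adjusted p = 1.2e-07). Its close relative Oxsr1 was lower at -0.41 ± 0.15.

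In the distal convoluted and connecting tubule, 7 of 17 genes were lower (41.2%) and 0 higher, with a median of 0.01. Without array 3, 2 genes were higher, and with 1 loess curve per array 4 were lower and 1 higher. S100g, the calcium-binding protein that carries calcium through the cell, ran from -0.71 to -0.40 with a median of -0.65 (mean -0.61 ± 0.12, 1.53-fold lower, limma adjusted p = 1.7e-05), and stood at 0.22 before loess. Slc12a3, the thiazide-sensitive sodium-chloride cotransporter, was at -0.33 ± 0.13, and at 0.29 before loess. Calb1, the larger calbindin of the same cells, was at -0.05 ± 0.19 and did not pass the test. Without array 3 it was at 0.03.

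In principal cells of the collecting duct, 7 of 34 genes were higher (20.6%) and 10 lower (29.4%), and with 1 loess curve per array the counts were 2 and 4. The 3 subunits of the epithelial sodium channel, which takes up the last of the sodium, were all lower. Scnn1a ran from -0.79 to -0.28 with a median of -0.62, a mean of -0.59 ± 0.18. Scnn1b ran from -0.70 to -0.26 with a median of -0.53, a mean of -0.53 ± 0.17. Scnn1g ran from -0.76 to -0.11 with a median of -0.42, a mean of -0.43 ± 0.21. None of the 18 values was above 0, and the subunit means lay within 1 SD of each other. Adjusted p-values (limma) were 5.4e-05, 0.00011 and 0.001. Before loess Scnn1a stood at 0.15, Scnn1b at -0.66 and Scnn1g at -0.04, and with 1 loess curve per array Scnn1g was at -0.30 (limma adjusted p = 0.053). Scnn1b and Scnn1g neighbour each other in the genome, with no protein-coding gene between them.

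Avpr2, the vasopressin receptor that brings water channels to the membrane, was lower at -0.48 ± 0.28, while the water channel Aqp2 was at -0.15 ± 0.22 and did not pass the test. Hsd11b2, which inactivates glucocorticoid and so leaves the mineralocorticoid receptor to aldosterone, ran from 0.26 to 0.41 with a median of 0.33 (mean 0.34 ± 0.06). Prss8, a protease that activates the sodium channel, was higher at 0.27 ± 0.13, and at 0.22 (limma adjusted p = 0.071) with 1 loess curve per array. The partner of Hsd11b2 went the opposite way. Hsd11b1, which regenerates active glucocorticoid, ran from -1.20 to -0.78 with a median of -0.95 (mean -0.98 ± 0.16, 1.98-fold lower, limma adjusted p = 5.3e-07).

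Intercalated cells secrete acid or bicarbonate. Of 21 of their genes, 6 were lower (28.6%) and 3 higher (14.3%). The number higher was 0 without array 4 or array 5, and 1 without array 6 or with 1 loess curve per array. Lower genes included both anion exchangers, Slc26a4 (pendrin, of the bicarbonate-secreting cell) at -0.44 ± 0.17 and Slc4a1 (of the acid-secreting cell) at -0.47 ± 0.16. Car15, a membrane-bound carbonic anhydrase, was at -0.53 ± 0.09, and the ammonia transporter Rhcg at -0.30 ± 0.19. Before loess, Slc26a4 was at 0.12, Car15 at 0.12 and Rhcg at 0.25. The proton pump subunit Atp6v1b1 was at -0.09 ± 0.16 and did not pass the test. In the medullary osmolyte and urea list, 8 of 13 genes were lower (61.5%) and 1 higher, with a median of -0.27. A single loess curve per array gave 5 lower, and without array 2 or array 3 the number higher was 2. The 1 higher gene, the urea transporter Slc14a1 of the descending vasa recta, ran from 0.33 to 0.71 with a median of 0.49 (mean 0.48 ± 0.14). That mean averages 2 spots that disagree, one at 1.12 and higher on 6 of 6 arrays, the other at -0.16 and higher on 2 of 6. Its genomic neighbour Slc14a2, the urea transporter of the collecting duct, was lower at -0.32 ± 0.21, and lay below the averaged Slc14a1 values on every array, with the second Slc14a1 spot alone at -0.16 ± 0.28.

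**Figure D2:**
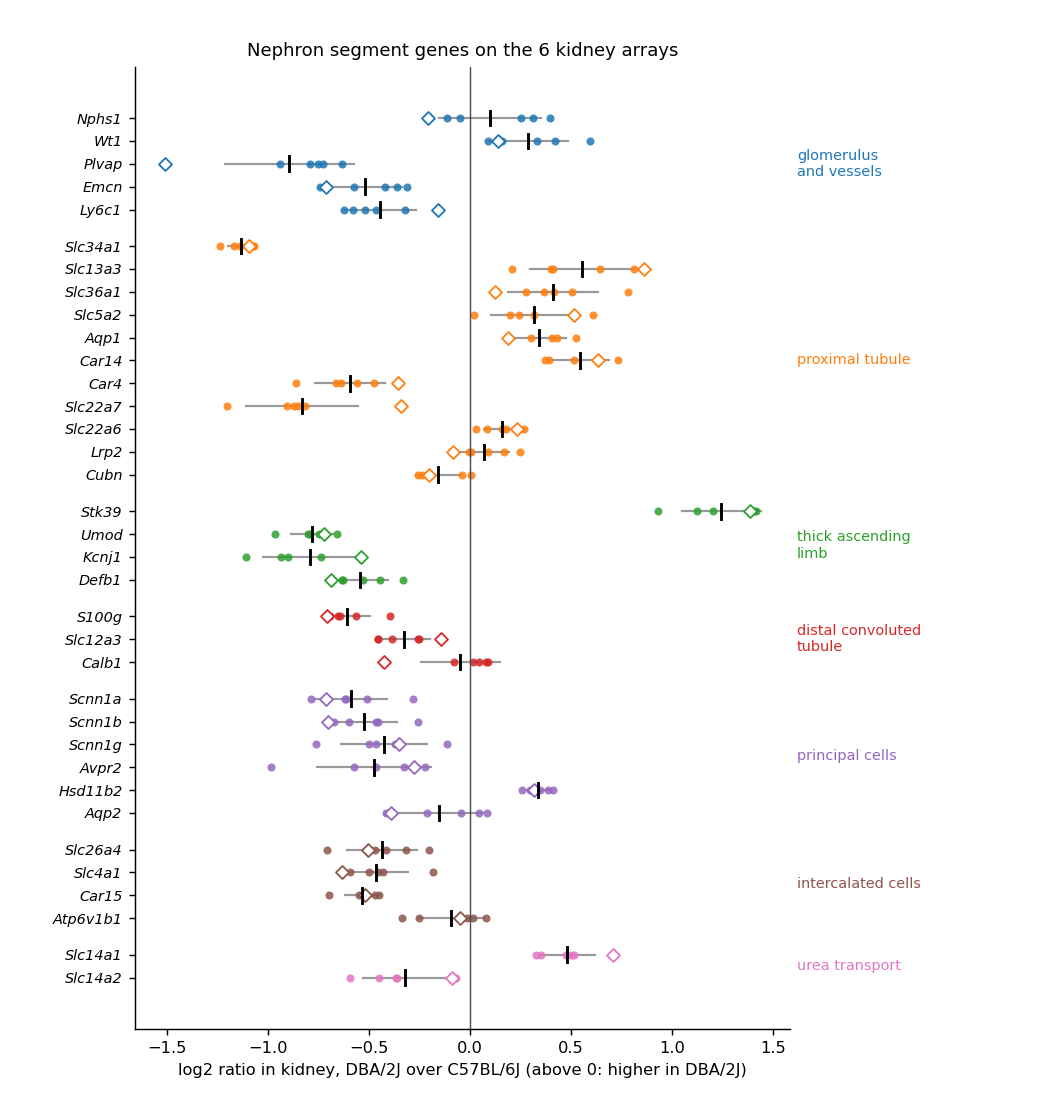
Log2 ratio in kidney (horizontal axis) of 35 genes ordered along the nephron; filled points are arrays 1, 2, 4, 5 and 6, open diamonds array 3, black bars means and grey lines 1 SD. Slc34a1 and the sodium channel subunits lie left of 0 on every array, and Stk39 lies right of it on every array.

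Each of the 5 lists of energy and amino acid metabolism held more members higher than lower in DBA/2J. The excess was small in 2 of them, 8 against 7 for glucose metabolism and 11 against 9 for fatty acid oxidation. Over all features 18.9% were higher and 18.3% lower. The list medians lay between -0.0041 and 0.10, against 0.0070 over all features. Before loess the medians of these lists lay between 0.42 and 0.60. Array 3 had the lowest list median of the 6 arrays in each of them. In the citric acid cycle and pyruvate list 10 of 34 genes were higher (29.4%) and 3 lower (8.82%), or 5 lower without array 6. The list's median was -0.23 on array 3 and 0.05 to 0.17 on the others. Fh1 (fumarase) was higher at 0.57 ± 0.22, Suclg2 (a subunit of succinyl-CoA ligase) at 0.39 ± 0.09 and Pdk2, a kinase that inhibits pyruvate dehydrogenase, at 0.51 ± 0.17. Under a single loess curve per array Pdk2 was at 0.26 (limma adjusted p = 0.066). Entry of pyruvate into mitochondria was represented by Mpc1, a subunit of the pyruvate carrier, which ran from -0.65 to -0.47 with a median of -0.59 (mean -0.58 ± 0.06, 1.5-fold lower), and stood at 0.34 before loess. Pdk4, the fasting-induced relative of Pdk2, was lower at -0.46 ± 0.06, and at 0.28 before loess.

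In glucose metabolism, 8 of 34 genes were higher (23.5%) and 7 lower (20.6%), or 4 lower without array 3 and 3 lower with 1 loess curve per array. Fbp1, an enzyme of glucose synthesis, was higher at 0.43 ± 0.17 and Ldhb, which turns lactate into pyruvate, at 0.35 ± 0.05. Pck1, the enzyme that commits carbon to glucose synthesis, was at -0.09 ± 0.10 and did not pass the test. The glycolytic gene Tpi1 ran from -1.08 to -0.67 with a median of -0.79 (mean -0.82 ± 0.17, 1.77-fold lower). Pfkp, the platelet-type phosphofructokinase, was at -0.38 ± 0.06, and at 0.54 before loess.

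In mitochondrial fatty acid oxidation 11 of 40 genes were higher (27.5%) and 9 lower (22.5%), with a median of -0.0041. Both carnitine palmitoyltransferases, which carry long-chain fatty acids into mitochondria, were higher: Cpt1a was at 0.36 ± 0.06 and Cpt2 at 0.40 ± 0.22. Cd36, which takes up fatty acids at the cell surface, ran from -1.21 on array 3 to -0.43 with a median of -0.64, a mean of -0.70 ± 0.27. Without array 3 it was -0.59 and before loess 0.25. The nuclear receptor Ppara, which drives many of these genes, was at 0.06 ± 0.38 and did not pass the test. Medium-chain acyl-CoA synthetases were far apart in opposite directions. Acsm1 ran from 1.02 to 1.74 with a median of 1.31 (mean 1.29 ± 0.27, 2.45-fold higher), and Acsm3 from -1.57 to -1.097 with a median of -1.27 (mean -1.32 ± 0.20, 2.49-fold lower). In RefSeq's gene order (GRCm38.p6) Acsm1 and Acsm3 lie with 3 protein-coding genes between them, and so do Umod and Acsm1.

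Peroxisomal genes had 19 of 56 members higher (33.9%) and 10 lower (17.9%), with a median of 0.08. Hao2, a peroxisomal 2-hydroxyacid oxidase, ran from 0.65 on array 3 to 1.77 with a median of 1.67. The other 5 arrays lay between 1.41 and 1.77. The mean was 1.49 ± 0.43, 2.80-fold higher (limma adjusted p = 1.6e-06), and 1.65 without array 3. Pex14, part of the peroxisomal import machine, was higher at 0.66 ± 0.06. Nudt19, a peroxisomal coenzyme A hydrolase, ran from -1.64 to -1.32 with a median of -1.48 (mean -1.48 ± 0.11, 2.80-fold lower, limma adjusted p = 4.2e-09). Acox2, an oxidase of bile acid intermediates and branched-chain fatty acids, was lower at -0.74 ± 0.19. Ehhadh, of peroxisomal beta-oxidation, was at -0.36 ± 0.10, and at 0.37 before loess.

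In amino acid and one-carbon metabolism 23 of 72 genes were higher (31.9%) and 10 lower (13.9%), with a median of 0.10. Gpt (alanine aminotransferase) ran from 0.41 to 0.83 with a median of 0.62 (mean 0.62 ± 0.13). Hpd, an enzyme of tyrosine breakdown, was higher at 0.41 ± 0.19. Tdo2, which opens the tryptophan ring, was lower at -0.61 ± 0.10. Gatm, of creatine synthesis, and Ass1, of arginine synthesis, were at -0.03 ± 0.09 and 0.00 ± 0.08 and did not pass the test.

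Xenobiotic and lipid-oxidising enzymes differed in both directions. Of 61 cytochrome P450 and flavin monooxygenase genes, 8 were higher (13.1%) and 14 lower (23%), 4 in each direction at 1.5-fold. Within the Cyp4a subfamily, which oxidises the end carbon of fatty acids and arachidonic acid, the directions were opposed. Cyp4a12a ran from 0.38 on array 3 to 2.29 with a median of 2.15, and the other 5 arrays lay between 1.96 and 2.29. Its mean was 1.86 ± 0.73, 3.63-fold higher, and 2.16 without array 3. Cyp4a10 ran from -1.21 to -0.82 with a median of -0.86 (mean -0.95 ± 0.17, 1.93-fold lower). Its direct neighbour Cyp4a14 was at -0.71 ± 0.19. Before loess Cyp4a10 stood at -0.04. Cyp4f18, of a related subfamily, was at -0.86 ± 0.24 and at 0.15 before loess. Its spot was bright in all tissues, at percentiles 97.3 in brain, 99.6 in kidney and 99.0 in liver, and its ratio may not be that of the named gene. Cyp2b10 was at -0.60 ± 0.28. Cyp4b1, abundant in mouse kidney, was at -0.08 ± 0.06 and did not pass the test.

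Cyp2a4 and Cyp2a5, steroid and coumarin hydroxylases, were both higher, and array 3 was again low. Cyp2a4 ran from 0.38 on array 3 to 2.08 with a median of 1.82 (mean 1.62 ± 0.62, 3.08-fold). Cyp2a5 ran from 0.028 on array 3 to 2.07 with a median of 1.81 (mean 1.53 ± 0.76, 2.88-fold). Without array 3 the means were 1.87 and 1.83. Their promoters are printed because they are nearly identical. The 2 spots may share RNA and so may not be separate measurements, which was not tested. In brain, where both spots were dimmer than in kidney, the means were 0.0075 ± 0.32 for Cyp2a4 and 1.05 ± 0.68 for Cyp2a5. In liver they were closer, at 0.48 ± 0.29 and 0.68 ± 0.23. Probe sequences were not used here. The windows are RefSeq's for GRCm38.p6, Cyp2a4 at chr7:26306942-26307241 and Cyp2a5 at chr7:26835089-26835388, both on the plus strand, with GTTAAT in capitals.
Cyp2a4: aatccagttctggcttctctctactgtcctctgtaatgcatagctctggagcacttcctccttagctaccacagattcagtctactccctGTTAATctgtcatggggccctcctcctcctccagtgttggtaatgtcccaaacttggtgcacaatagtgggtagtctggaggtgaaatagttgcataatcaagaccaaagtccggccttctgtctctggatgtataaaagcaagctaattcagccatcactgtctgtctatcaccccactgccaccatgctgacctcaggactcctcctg
Cyp2a5: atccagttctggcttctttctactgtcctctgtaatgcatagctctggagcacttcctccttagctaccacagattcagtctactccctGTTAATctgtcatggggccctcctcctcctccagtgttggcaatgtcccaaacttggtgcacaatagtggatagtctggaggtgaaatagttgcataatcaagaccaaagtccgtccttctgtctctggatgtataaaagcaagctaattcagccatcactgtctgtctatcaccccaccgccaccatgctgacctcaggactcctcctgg
Shifted by 1 base, 294 of 299 bases were identical (98.3%). The match to GTTAAT began 160 bases before the start in Cyp2a4 and 161 bases before it in Cyp2a5. Cyp2e1, the ethanol-inducible P450, was higher on all arrays, from 0.70 to 1.12 with a median of 0.83 (mean 0.87 ± 0.16, 1.83-fold).

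Of 81 conjugating and other detoxifying enzymes, 24 were lower (29.6%) and 14 higher (17.3%). The alpha-class glutathione transferases were lower together. Gsta2 ran from -1.85 to -1.19 with a median of -1.54 (mean -1.51 ± 0.22, 2.85-fold lower, limma adjusted p = 3.3e-08), Gsta3 was at -0.97 ± 0.13 and Gsta1 at -0.94 ± 0.31. These genes are similar in sequence and their spots may share RNA. The microsomal transferase Mgst3 went the other way, at 0.92 ± 0.19. Aldh1a1, a retinaldehyde dehydrogenase, ran from 1.37 to 2.42 with a median of 2.07 (mean 1.94 ± 0.45, 3.83-fold higher, limma adjusted p = 1.9e-07). Adh4, an alcohol dehydrogenase that also acts on retinol, was lower at -1.04 ± 0.20. Nat8, which makes mercapturic acids, was higher at 0.80 ± 0.12 and the glucuronosyltransferase Ugt2b37 at 0.64 ± 0.17.

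**Figure D3:**
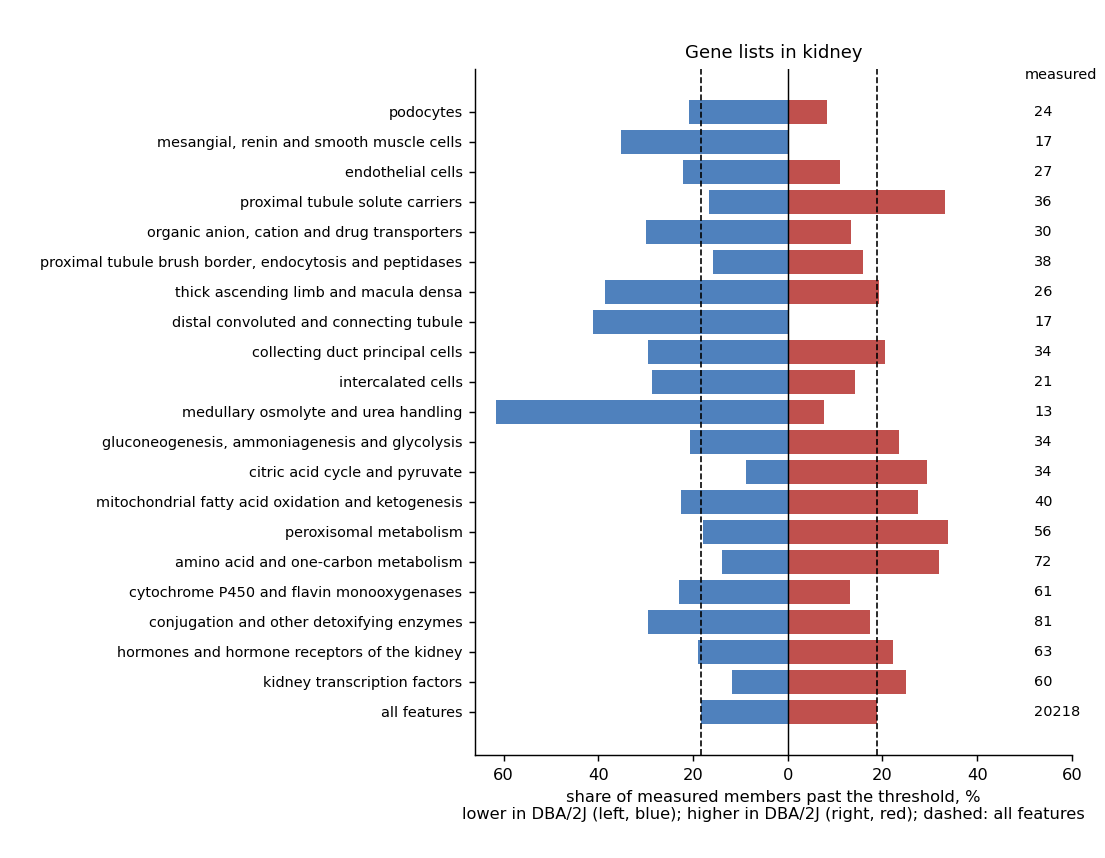
Share of the measured members of each gene list past the threshold (horizontal axis, %), lower in DBA/2J to the left and higher to the right, with the number measured at the right edge and dashed lines at 18.3% and 18.9% for all features. The medullary list reaches 61.5% lower and the peroxisomal list 33.9% higher. The distal convoluted tubule list and the mesangial, renin and smooth muscle list have no member higher.

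**Figure D4:**
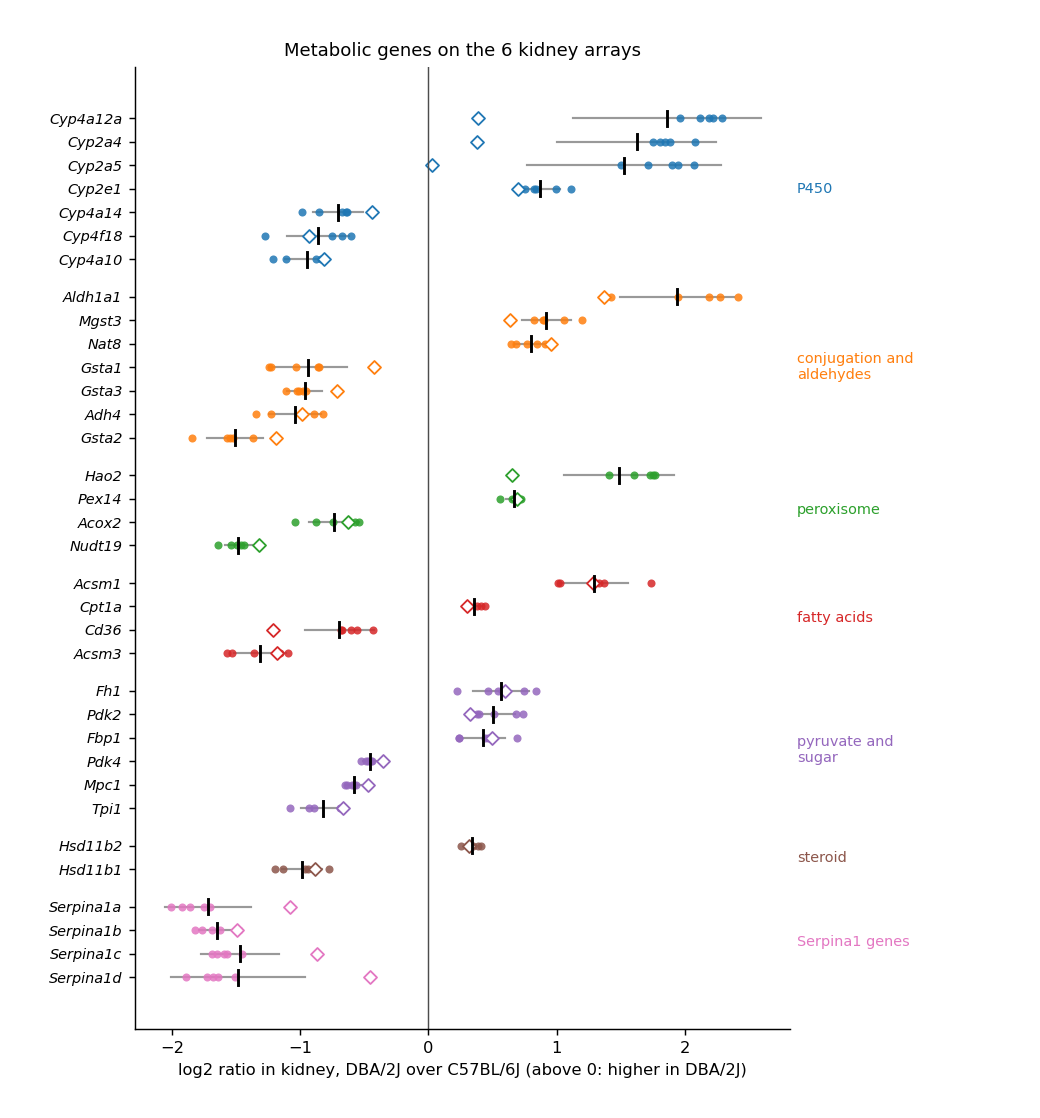
Log2 ratio in kidney (horizontal axis) of 34 metabolic and related genes; filled points are arrays 1, 2, 4, 5 and 6, open diamonds array 3, black bars means and grey lines 1 SD. For Cyp4a12a, Cyp2a4, Cyp2a5 and Hao2 array 3 lies far left of the other arrays.

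Hormone, receptor and transcription factor genes differed in both directions. Of 63 hormones and receptors, 14 were higher (22.2%) and 12 lower (19%), and of 60 kidney transcription factors 15 were higher (25%) and 7 lower (11.7%). Esrrg, an orphan nuclear receptor of mitochondrial genes, was higher at 0.52 ± 0.14, and Dbp, a clock output factor, at 0.67 ± 0.31. Hnf4a, the proximal tubule regulator, was at 0.27 ± 0.15, and its brightest spot alone at 0.20 (limma adjusted p = 0.084). A single loess curve per array gave 0.15 (limma adjusted p = 0.27). The renin substrate Agt and the renal lineage factor Pax8 were at 0.07 ± 0.22 and -0.12 ± 0.25 and did not pass the test. Without array 3 Pax8 was at -0.02. Meis1, a homeobox factor of renal stroma and among the 20 named genes with the largest mean, ran from 1.33 to 1.59 with a median of 1.45 (mean 1.47 ± 0.10, 2.76-fold higher).

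The strain ratios in kidney were then set against those in brain and liver, where the dye orientation was the same. A dye effect common to the tissues cancels in the difference, and one that differs between them does not. Before loess the correlation of ratio with brightness was 0.62 to 0.71 on kidney, 0.014 to 0.61 on brain and -0.15 to 0.31 on liver arrays. Kidney minus brain passed the threshold for 4022 features (19.9%), 9.37% higher and 10.5% lower, and kidney minus liver for 3143 (15.5%), 8.86% higher and 6.68% lower. Features higher in kidney and above both other tissues numbered 787 (3.89%), and those lower and below both 557 (2.75%). Proximal solute carriers had 5 of 36 genes in the first class and 3 in the second. Peroxisomal genes had 8 and 3 of 56, mitochondrial fatty acid genes 5 and 6 of 40, and amino acid genes 8 and 1 of 72. Principal cell genes had 3 and 1 of 34.

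Segment genes were compared across the tissues in the same way, and the spots of Umod, S100g, Scnn1a, Plvap and Slc34a1 were dimmer in brain and liver than in kidney. Umod was at 0.06 ± 0.15 in brain and 0.04 ± 0.22 in liver, and kidney differed from brain by -0.84 ± 0.10 (SE) and from liver by -0.82 ± 0.10 (limma adjusted p = 5.2e-06 and 3.7e-06). For S100g the differences were -1.11 and -0.65, for Scnn1a -0.66 and -0.63, and for Plvap -1.48 and -0.85, all past the threshold. The brain ratios of S100g (0.50 ± 0.15) and Plvap (0.59 ± 0.38) lay on the other side of 0 from kidney and make up part of those differences. Slc34a1 was at -0.49 ± 0.33 in brain and -0.10 ± 0.09 in liver, and kidney, lower in the same direction as brain, differed from them by -0.64 and -1.03. Stk39 was above brain by 1.23 and above liver by 0.56, and the liver mean of 0.68 ± 0.20 went in the same direction as kidney. Acsm3 was below brain by -1.32 and below liver by -0.89. The spot of Acsm3 was dimmer in brain and liver, at percentiles 16.9 and 70.4 against 95.9 in kidney. Without loess the kidney minus liver difference of Umod was 0.019, of S100g 0.17 and of Scnn1a 0.058, the kidney minus brain difference of Scnn1a 0.063 and that of Slc34a1 0.16, none of them past the threshold. In the same setting Slc34a1 minus liver was -0.26, Umod minus brain -0.038, S100g minus brain -0.25, Plvap minus liver -0.35 and Acsm3 minus liver -0.22, also not past the threshold, so 4 of the 14 differences kept their call. With brightness not restored, Slc34a1 minus brain (-0.34), Scnn1a minus brain (-0.31) and Scnn1a minus liver (-0.29) did not pass. Cyp4a10 was lower in liver as well (-1.02 ± 0.23, kidney minus liver 0.07), and so was Tpi1 in both other tissues (-0.54 ± 0.23 in brain and -0.73 ± 0.28 in liver).

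**Figure D5:**
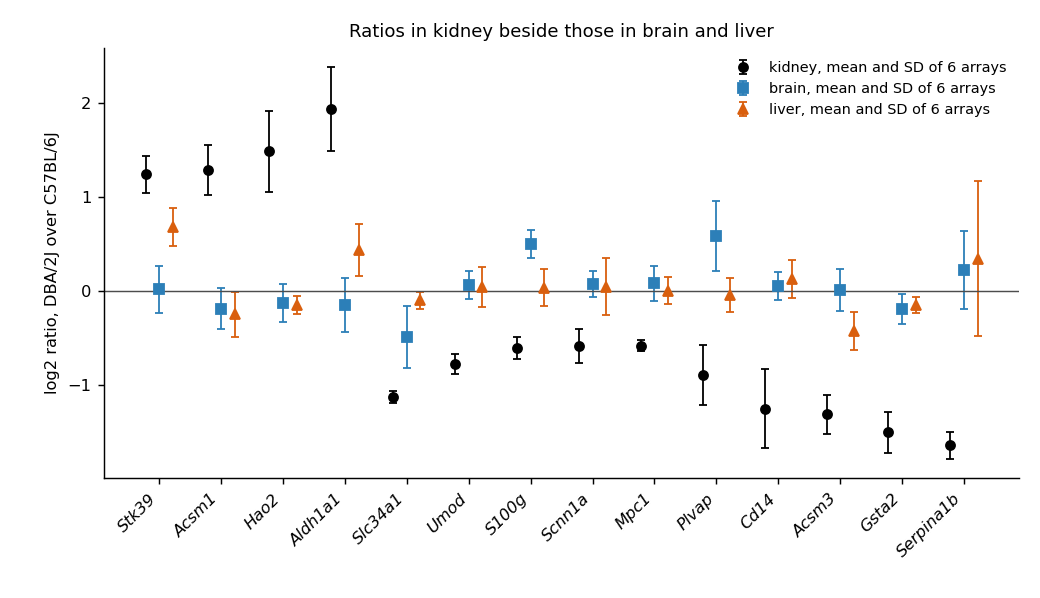
Mean log2 ratio (vertical axis) of 14 genes in kidney (circles), brain (squares) and liver (triangles), with 1 SD of the 6 arrays of each tissue. Kidney lies above both other tissues for the first 4 genes and below both for the last 10.

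Genes known to differ between male and female kidney were not moved in one direction. Of 8 male-biased genes measured, 3 were higher (Cyp4a12a, Cyp2e1 and Slco1a1) and 2 lower (Acsm3 among them). Both female-biased genes, Cyp2a4 and Cyp2a5, were higher. Kap, which androgen induces in the proximal tubule, was at -0.12 ± 0.39 and did not pass the test. It lay between -0.06 and 0.17 on 5 arrays and at -0.88 on array 5, and its spot reached at least 95% of the largest possible intensity on 5 of the 6 arrays, which limits any ratio. A single loess curve per array gave -0.60 (limma adjusted p = 0.0066), and the value before loess was 0.48 (limma adjusted p = 0.0034). Xist, expressed in females, was at -0.18 ± 0.22 and did not pass the test, or -0.24 (limma adjusted p = 0.035) without array 3. The Y-linked Eif2s3y was at -0.30 ± 0.05, and at 0.53 before loess. In the list of Xist and Y-linked genes 1 of 8 was higher and 2 lower. The part of sex in these results was not tested.

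Lists without a segment of their own were as mixed. Shares past the threshold, against 37.2% of all features, were 23.3% for tight junction, 20.6% for ion pump, 33.3% for leukocyte and 43.8% for muscle genes. They were 50% for adrenal, 35.7% for adipose, 41.7% for pancreatic, 26.7% for neuronal and myelin, 61.1% for hepatocyte and 45.2% for injury and matrix genes. Among 30 tight junction genes 4 were higher and 3 lower, and among 34 ion pump genes 5 higher and 2 lower, or 8 higher without array 3. Leukocyte genes had 3 of 33 members higher and 8 lower, with a median of -0.06. The number higher was 1 without array 5 and the number lower 5 without array 2 or array 4. Cd14, a receptor for bacterial lipopolysaccharide, was lower at -1.26 ± 0.42 and the class II gene H2-Eb1 at -0.65 ± 0.17. Muscle genes had 7 of 16 lower and 0 higher (median -0.19), with Myh1, a fast myosin, at -0.84 ± 0.31. A single loess curve per array gave 3 lower. Adrenal genes had 3 of 14 higher and 4 lower, adipose genes 4 of 14 higher and 1 lower, and pancreatic genes 3 of 12 higher and 2 lower. Leaving out single arrays brought the number higher down to 1 in each of these 3 lists. Neuronal and myelin genes had 2 of 15 higher and 2 lower. Hepatocyte genes had 5 of 18 higher and 6 lower. Alb (serum albumin) was higher at 0.88 ± 0.18. The neighbouring alpha-1 antitrypsin genes were lower, Serpina1a at -1.72 ± 0.33, Serpina1b at -1.65 ± 0.14, Serpina1c at -1.47 ± 0.31 and Serpina1d at -1.49 ± 0.52. These are near-copies whose spots may share RNA. Without array 3 the means of Serpina1a, Serpina1c and Serpina1d were -1.85, -1.59 and -1.69. Among genes of injury and matrix, 7 of 31 were higher and 7 lower, with Col4a1, a chain of basement membrane collagen, at -1.03 ± 0.31, or -0.91 without array 3. With 1 loess curve per array 4 of the 31 were higher. The part of these cell types in the segment results was not tested.

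Array 3 differed from the other 5 arrays in a set of abundant genes. Its value lay outside the range of the others and more than 1 log2 unit from their mean for 78 features, 70 of them below, against 11 to 56 features on the other arrays. The 78 features came from 31 of the 48 print-tip blocks, at most 7 from a block, with a median brightness percentile of 79.8. Hdc (histidine decarboxylase, which makes histamine) ran from 1.79 to 2.15 on 5 arrays and was at -0.12 on array 3 (mean 1.59 ± 0.84, or 1.93 without it). Prxl2b, a prostamide synthase, ran from 1.51 to 2.48 on 5 arrays and was at -0.19 on array 3 (mean 1.63 ± 0.95, or 2.00 without it). The direction of array 3 was not opposite throughout: Umod, Slc34a1, Stk39 and the sodium channel subunits on it lay within the range of the other arrays, or for Scnn1b just below it.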

How the data were processed

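Per the labels, pools of kidney RNA were hybridised on two-colour glass arrays, quantified with Spot and normalised by print-tip lowess in limma. No source used here gives the versions. The deposited log2 ratios did not have that form: for 21765 spots, after 1275 spots at 0 on every array were left out, 100% of the values equalled the log2 of 1 whole number over another (tolerance 1e-12), and kidney array medians ran from -0.85 to 0.16. They were taken as unnormalised, which departs from the planned design.

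The whole numbers were recovered by continued fractions, and their common factor was estimated from the arrays of a tissue together (assumed SD 0.4). On simulated kidney values, drawn with a smaller scatter than assumed, the factor was exact for 75.2%. The fitted brightness of a spot was off there by 0.22 log2 (root mean square). The ratios were normalised by print-tip loess against the fitted brightness (span 0.3, 4 iterations, 48 blocks of 480 spots). Spots of 1 symbol were averaged. Means of 6 arrays were tested against 0, and tissue differences in a fit of 18 arrays, with limma 3.58.1 (R 4.3.3) lmFit and eBayes, Benjamini-Hochberg over 20218 features, at 0.05. The fit was checked on simulated data. The number of arrays limits the precision. Alternatives were other normalisations, filters, fits and arrays left out.

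The 33 gene lists (958 of 1194 genes measured) and the rule for named genes were chosen with earlier results of these data known. The rule takes the index genes of each list, up to 4 highest and 4 lowest members past the threshold with 1 sign on all arrays, the 20 highest and 20 lowest named genes, and the 10 highest and 10 lowest past all 3 comparisons. It gave 298 genes, of which part is named. Symbols came from the platform annotation, updated through RefSeq (GRCm38.p6) for 15964 spots. Promoters were found for 91 of 110 genes named.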

Additional observations from a re-analysis of the deposited data

Results flagged for a closer look

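For 16 of the 110 genes named, 1 kidney array stood far from the other 5, with a gap past Dixon's critical value. Chance alone gives about 1 in 20 for independent genes, but these were chosen out of 298 with values known and include near-copies, so the count is a description. Array 3 was that array for 14 of them. Its log2 ratio was 0.38 for Cyp4a12a, 0.38 for Cyp2a4, 0.028 for Cyp2a5, 0.65 for Hao2, -0.12 for Hdc and -0.19 for Prxl2b, all below the other arrays. It was -1.08 for Serpina1a, -0.87 for Serpina1c and -0.45 for Serpina1d, nearer 0 than the others, and -1.51 for Plvap, -1.21 for Cd36, -1.64 for Col4a1, -0.63 for Pax8 and -0.43 for Calb1, below the others. Kap stood at -0.88 on array 5 and Pecam1 at -0.40 on array 2.

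For 7 genes picked from those named, the strain ratio in kidney differed from that in brain and in liver, by a test of the difference. They are not the only ones: Aldh1a1, Acsm1 and Cd14, among other named genes, also passed both differences. Over all features 19.9% passed for kidney minus brain and 15.5% for kidney minus liver. Kidney minus brain was -0.64 for Slc34a1, -0.84 for Umod, -1.11 for S100g, -0.66 for Scnn1a, -1.48 for Plvap, -1.32 for Acsm3 and 1.23 for Stk39. Kidney minus liver was -1.03 for Slc34a1, -0.82 for Umod, -0.65 for S100g, -0.63 for Scnn1a, -0.85 for Plvap, -0.89 for Acsm3 and 0.56 for Stk39. Of these 14 differences, 10 were not past the threshold without loess and 3 (Slc34a1 minus brain and both of Scnn1a) with unrestored intensity.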

How the results depend on the processing

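Loess was the choice that mattered most. Without it, with arrays centred on their median, 13113 features passed the threshold and 5748 were also 1.5-fold apart, while kidney minus brain passed for 7113 features and kidney minus liver for 9288. With 1 loess curve per array 1140 features were 1.5-fold apart, and 1369 with unrestored intensity. Without loess 20 of the 92 named genes past the threshold changed sign: 0.067 for Slc22a7, 0.37 for Slc22a12, 0.11 for Umod, 0.034 for Defb1, 0.22 for S100g, 0.29 for Slc12a3, 0.15 for Scnn1a, 0.12 for Slc26a4, 0.12 for Car15, 0.25 for Rhcg, -0.19 for Wt1, 0.017 for Ly6c1, 0.14 for Mgp, 0.54 for Pfkp, 0.34 for Mpc1, 0.28 for Pdk4, 0.25 for Cd36, 0.37 for Ehhadh, 0.15 for Cyp4f18 and 0.53 for Eif2s3y. With unrestored intensity Eif2s3y was at 0.17. Without loess the tissue differences also changed sign for Slc34a1 minus brain (0.16), Umod minus liver (0.019), S100g minus liver (0.17), and Scnn1a minus brain (0.063) and minus liver (0.058). Of the 14 tissue differences 5 more lost their call without loess, and 3 with unrestored intensity. Without loess 6 further gene means lost their call and 14 gained one. Of the list medians, 30 of 33 moved without loess and 20 with unrestored intensity. The cause was not tested.

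The other alternatives moved less. Of the 92 genes, 0 were lost when arrays were scaled, with all 18 arrays in the fit or with robust moderation, 0 of the 91 left without the dimmest 25% of spots, 1 (Hnf4a) with the brightest spot, 4 with 1 loess curve per array and 19 with unrestored intensity. Leaving out each kidney array in turn lost 0 of the 92. Features past the threshold then ranged from 6026 to 7179, and those also 1.5-fold apart from 700 to 822. Kidney minus brain ranged from 2988 to 3852 and kidney minus liver from 2472 to 3028. With the replicate number as a block 3732 and 2942 features passed. Whether the numbers pair the arrays was not tested. Correlations of same-numbered deviations were weak, from -0.11 to 0.16. Still, 3 of 6 kidney arrays correlated best with their own number in brain and 3 of 6 in liver. That is more than random matching would give on average.

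Signal limits the brightest spot, Kap, and a single spot stands for most genes.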
